A study of Rattus norvegicus with 9 samples.

Results

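The REV-ERB nuclear receptors, the ROR alpha receptor and the activators of the circadian clock were followed as 6 genes of the superior mesenteric artery (SMA) of the rat: Nr1d1, Nr1d2, Rora, Arntl, Clock and Npas2. They were taken by symbol from a table of 37203 gene symbols, where each of the 6 had a row and each passed the filter on low counts with 15482 genes in all. The set was chosen by symbol and clock role with fold changes against normal in these same libraries in view, among them the low level of Nr1d1 after 1 h. Its values against normal rats, and those between 4 h and 1 h, are therefore given as a description, and no test of them is offered as evidence.

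SMAs came from 8-week-old Sprague-Dawley rats of 220 to 240 g with no genetic change named in the labels, with 3 rats in a normal group, 3 after 1 h of ischemia and 3 after 4 h of ischemia. Ischemia was a hemorrhage model, in which anaesthetized rats lost blood through a catheter in the right femoral artery, and hours run from the end of that step. No sham operation is described for the normal rats, and no hour of the day or light schedule is given for any rat. Surgery, anaesthesia and the hour of sampling cannot be told apart from ischemia in these groups. The series counts 3 rats per group, and errors and p-values measure only the spread between these libraries.

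The clock of a cell is a loop of transcription. Arntl (the gene of BMAL1) and Clock code for partners that bind E-boxes in DNA and switch genes on, and Npas2 codes for a protein that can take the place of CLOCK. Among their targets are Nr1d1 and Nr1d2, the genes of REV-ERB alpha and REV-ERB beta, which bind ROR elements and repress Arntl, while RORs such as the product of Rora bind the same elements and activate it. REV-ERBs use heme as a ligand and recruit a corepressor complex that holds the histone deacetylase HDAC3. Arteries hold such a clock of their own, and blood pressure and vessel tone follow a daily rhythm.

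To show where these loops could meet the genes measured, the bases just before the start sites of Arntl, Nr1d1 and Nr1d2 are given, since Arntl differed from normal in the opposite direction to the REV-ERB genes. All 6 genes matched RefSeq entries of assembly GRCr8, Arntl through its newer symbol Bmal1. The genome build used for counting is not given in the sources used here, and these are reference sequences. Each is 250 bases long, 5′ to 3′, and capitals mark the matches named below.
Arntl (chr1:176766078-176766327, plus strand): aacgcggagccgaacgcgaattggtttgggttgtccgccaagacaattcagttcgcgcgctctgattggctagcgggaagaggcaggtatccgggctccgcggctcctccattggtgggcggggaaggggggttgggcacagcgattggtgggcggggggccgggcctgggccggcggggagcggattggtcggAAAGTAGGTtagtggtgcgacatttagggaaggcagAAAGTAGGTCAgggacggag
Nr1d1, first start site (chr10:84231813-84232062, minus strand): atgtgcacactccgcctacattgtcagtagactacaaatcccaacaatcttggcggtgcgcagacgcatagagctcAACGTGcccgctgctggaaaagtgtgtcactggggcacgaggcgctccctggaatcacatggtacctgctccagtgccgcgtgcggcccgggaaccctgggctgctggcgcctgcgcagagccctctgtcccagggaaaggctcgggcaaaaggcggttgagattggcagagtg
Nr1d1, second start site (chr10:84229455-84229704, minus strand): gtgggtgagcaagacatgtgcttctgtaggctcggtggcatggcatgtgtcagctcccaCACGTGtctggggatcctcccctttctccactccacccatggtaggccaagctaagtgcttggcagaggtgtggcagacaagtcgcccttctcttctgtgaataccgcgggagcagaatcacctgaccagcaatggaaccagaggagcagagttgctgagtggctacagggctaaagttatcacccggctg
Nr1d2 (chr15:9954784-9955033, plus strand): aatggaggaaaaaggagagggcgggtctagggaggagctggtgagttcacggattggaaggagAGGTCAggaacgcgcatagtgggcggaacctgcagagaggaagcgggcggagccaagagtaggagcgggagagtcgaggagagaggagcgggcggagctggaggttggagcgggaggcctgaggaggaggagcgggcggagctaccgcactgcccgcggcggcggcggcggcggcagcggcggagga

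Both strands of all such windows in the RefSeq table, 33469 in number, were searched for the letters of clock elements, which were chosen after the windows had been read. A form of the ROR element, AAAGT followed directly by the core AGGTCA, stood in the Arntl window 20 bases before the start. A shorter form of it, AAAGTAGGT, stood there at 56 and, inside the longer match, at 20 bases. The longer form was in 0.00299% of all windows, which is the Arntl window alone, and the shorter form in 0.176%. Its letters were chosen after that window had been read, and other spellings with bases before the core were not searched. These shares therefore do not give how common ROR elements are. The core AGGTCA, which lies within the longer form, was in 14.1% of windows, and it stood in the Nr1d2 window 187 bases before the start. The E-box CACGTG was in 5.59% of windows and stood 191 bases before the second start site of Nr1d1. The E-box variant CACGTT was in 4.07% of windows and stood on the opposite strand 174 bases before the first start site, where it reads AACGTG. The windows of Rora, Clock and Npas2 held no match to these letters. None of the 6 genes had a match in its window to the D-boxes TTATGTAA (0.828% of windows) and TTACGTAA (0.108%) or to the cAMP response element TGACGTCA (1.59%).

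Total counts ran from 13114273 to 15504240 per library, and 1 CPM, a count scaled to library size with TMM factors of 0.814 to 1.22, stood for 12.1 to 17.9 counts. The 10 smooth muscle markers were detected in every library, with summed levels from 12167 to 72773 CPM. Libraries stood apart by neuronal RNA, which varied widely within each group. The 23 sympathetic neuron markers summed to between 59.6 and 797 CPM in normal rats, between 1199 and 11201 CPM at 1 h and between 72.6 and 11006 CPM at 4 h. Dbh, the enzyme that makes noradrenaline, was at 0 in normal replicate 2, and up to 6 of the 23 markers were at 0 in a normal library. Their mean log2 CPM, the neuron score, was highest in replicates 1 and 3 at 1 h (7.85 and 7.88) and replicate 3 at 4 h (7.79). Results are given below with the score as a covariate and without these 3 libraries. Markers of other cell types varied as well, and no covariate was used for them. Among normal rats alone, Schwann cell markers summed to between 256 and 4338 CPM and adipocyte markers to between 527 and 2795 CPM. In whole tissue, fewer cells of a type and less RNA per cell cannot be told apart.

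The REV-ERB pair was lower and Arntl was higher in all 6 ischemic libraries than in any normal library. At 1 h the libraries did not overlap normal for 2 lower and 1 higher of the 6 genes, beside 26.3% of all genes (13.5% lower and 12.8% higher). At 4 h this held for 2 lower and 2 higher, the second being Rora, beside 18.7% of all genes (10.8% lower and 7.93% higher). Rora and Clock lay close to their normal levels, and Npas2 varied as much among normal rats as between groups. The median log2 fold change of the 6 was -0.51 at 1 h and -0.23 at 4 h, beside -0.0076 and 0.027 over all genes tested. In the edgeR fit to all genes 1 of the 6, Nr1d1, was called at 1 h, where 0.0581% of all genes were called (0.0517% higher and 0.00646% lower). At 4 h, where 0.0904% of all genes were called (0.0646% higher and 0.0258% lower), 0 of the 6 were called by edgeR, 3 had an unadjusted p under 0.05 (12.4% of all genes) and DESeq2 called 3, of 551 genes in all. DESeq2 called 2 of the 6 at 1 h, where it called 638 genes in all. It was given all 24047 genes with any count, a wider set than the 15482 genes tested by edgeR. Calls combine an adjusted p below 0.05 and a fold above 1.5. Since the set was chosen with the 1 h result known and both contrasts share the normal libraries, nothing is read from these counts.

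**Figure D1:**
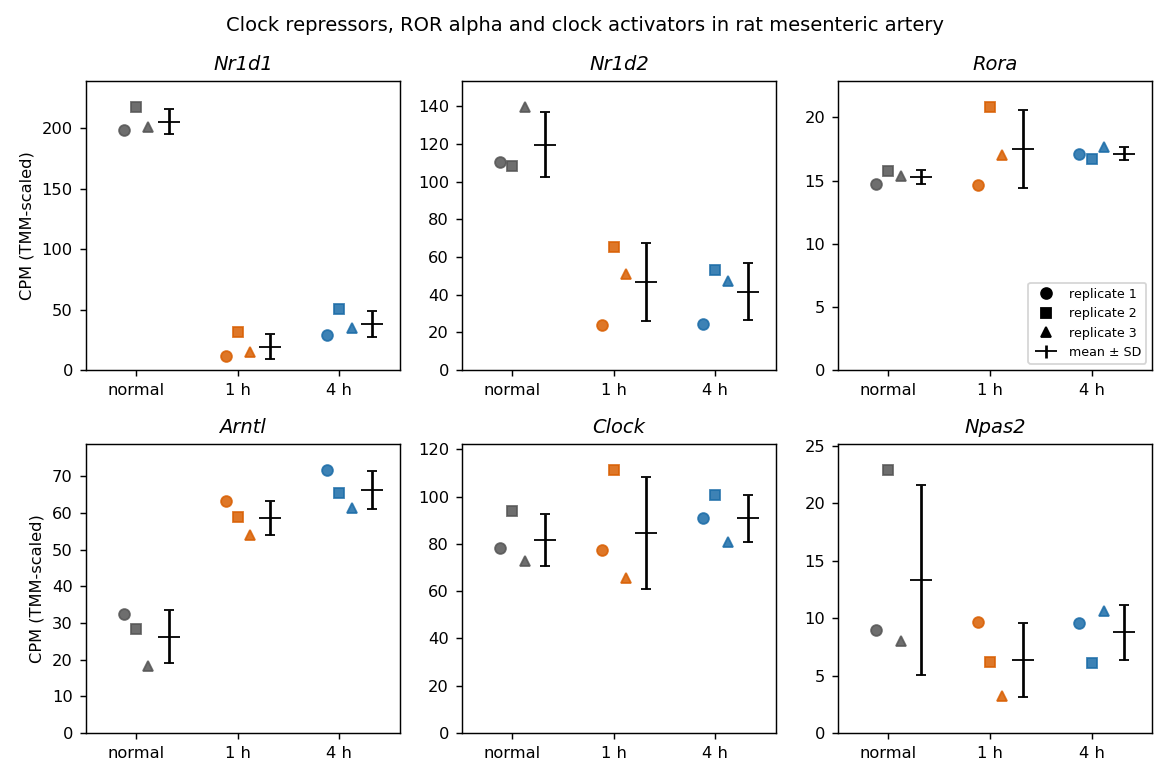
CPM (vertical axes, each from 0) of Nr1d1, Nr1d2, Rora, Arntl, Clock and Npas2 in the normal, 1 h and 4 h groups, with 1 point per library shaped by replicate number and the mean ± SD of 3 beside each group. Nr1d1 and Nr1d2 sit below and Arntl sits above the normal libraries in all 6 ischemic libraries, while Clock overlaps throughout.

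Nr1d1, the gene of REV-ERB alpha, was at 198, 217 and 201 CPM in normal replicates 1 to 3. It was at 11.4, 31.2 and 15.3 CPM after 1 h and at 29.4, 50.2 and 34.9 CPM after 4 h. The highest ischemic library was far below the lowest normal one, and the 1 h and 4 h libraries overlapped. Means were 205 ± 10.2, 19.3 ± 10.4 and 38.2 ± 10.8 CPM (SD, n = 3 each), so the 1 h mean was 9.40% and the 4 h mean 18.6% of the normal mean. Fitted log2 fold changes were -3.41 (SE 0.40) at 1 h and -2.43 (SE 0.38) at 4 h. These values rest on 171 to 3541 counts per library.

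Nr1d2, the gene of REV-ERB beta, was at 111, 108 and 139 CPM in normal rats, at 24.2, 65.3 and 50.9 CPM after 1 h and at 24.4, 53.4 and 47.3 CPM after 4 h. Again no ischemic library reached a normal one, and the ischemic groups overlapped. Mean levels were 119 ± 17.3, 46.8 ± 20.9 and 41.7 ± 15.3 CPM. The log2 fold change was -1.35 (SE 0.40) at 1 h and -1.52 (SE 0.40) at 4 h, so that Nr1d2 was at 39.2% and 34.9% of its normal mean.

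The 2 REV-ERB genes did not keep their proportion to each other. Within a library the count of Nr1d1 divided by that of Nr1d2, which does not depend on library scaling, came to 1.79, 2.0 and 1.44 without ischemia, 0.472, 0.477 and 0.300 after 1 h, and 1.20, 0.941 and 0.737 after 4 h. The 3 groups did not overlap, with 1 h lowest and 4 h between 1 h and normal. How often other pairs of genes separate in this way was not computed, so this order is a description. From 1 h to 4 h the log2 ratio was higher by 1.21 (exact two-sided permutation test, p = 0.1, the smallest that 3 against 3 libraries allow, adjusted p = 0.3 over the 6 ratios tested). No ratio could have passed 0.05 in this design, so nothing is read from this test. The low 1 h level of Nr1d1, which was in view when the genes were chosen, also enters this ratio.

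Nr1d1 and the thyroid hormone receptor gene Thra overlap on opposite strands in RefSeq, and whether counting used the strand is not given in the sources used here. Reads from the shared part may therefore have been counted for either gene. Thra levels were 158, 184 and 155 CPM in the normal libraries, then 156, 147 and 152 CPM after 1 h and 180, 179 and 208 CPM after 4 h. Its log2 fold change was -0.13 (SE 0.16, adjusted p = 0.676) at 1 h and 0.19 (SE 0.16, adjusted p = 0.64) at 4 h (edgeR). The ratio of Nr1d1 to Thra counts was between 1.18 and 1.30 in normal rats and between 0.0734 and 0.281 in ischemic ones. RefSeq places long noncoding RNAs over parts of Rora, Clock and Npas2 as well.

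Rora, the gene of the receptor that competes with REV-ERBs for the ROR element, had 14.7, 15.8 and 15.4 CPM in the normal libraries, 14.6, 20.8 and 17.0 CPM after 1 h, and 17.1, 16.7 and 17.6 CPM after 4 h. The normal and 1 h libraries overlapped, and the 4 h libraries lay just above the normal ones. Log2 fold changes were 0.19 (SE 0.18) at 1 h and 0.17 (SE 0.18) at 4 h, and the latter was -0.0016 when libraries were scaled by size alone. Rora counts ran from 201 to 311 per library. The ratio of Rora to Nr1d1 counts was between 0.0726 and 0.0766 in normal rats. It was between 0.667 and 1.28 at 1 h and between 0.332 and 0.583 at 4 h. These ranges do not overlap, but Rora lay close to its normal level, so the ratio mostly repeats the values of Nr1d1.

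Rorb, the gene of a ROR receptor known from neurons and retina, was near the floor of these libraries. It had 3, 0 and 2 counts in normal rats, 23, 12 and 40 counts at 1 h and 0, 0 and 29 counts at 4 h. Its highest counts were in the 3 libraries with the highest neuron score.

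Arntl was at 32.3, 28.2 and 18.2 CPM in normal rats, at 63.3, 58.8 and 53.9 CPM after 1 h and at 71.7, 65.5 and 61.3 CPM after 4 h. Each of the 6 ischemic libraries was above each normal one, and the 1 h and 4 h libraries overlapped. Means were 26.3 ± 7.24, 58.7 ± 4.67 and 66.2 ± 5.21 CPM. The log2 fold change was 1.16 (SE 0.22) at 1 h and 1.33 (SE 0.22) at 4 h, which is 2.23-fold and 2.52-fold. Normal rats spread more widely for their level (27.6% of the mean) than rats at 1 h (7.96%) or at 4 h (7.87%).

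Clock, the partner of BMAL1, stood at 78.0, 93.9 and 72.8 CPM without ischemia, 77.2, 111 and 65.4 CPM after 1 h, and 90.9, 100.6 and 80.9 CPM after 4 h. The groups overlapped in every pair. Log2 fold changes were 0.052 (SE 0.22) at 1 h and 0.15 (SE 0.22) at 4 h. The sign at 1 h changed when certain single libraries were left out, and the sign at 4 h changed with library size as the only scaling.

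Npas2 stood at 9.01, 22.9 and 8.05 CPM without ischemia, 9.70, 6.15 and 3.26 CPM after 1 h, and 9.59, 6.05 and 10.6 CPM after 4 h. Normal replicate 2 held the highest level of the 9 libraries, and the groups overlapped. The log2 fold change was -1.06 (SE 0.53) at 1 h and -0.60 (SE 0.52) at 4 h, and without normal replicate 2 it was -0.44 and 0.052. Npas2 had 53 to 314 counts per library. Normal replicate 2 was also the library with the lowest neuron score (-0.35), and their relation was not tested.

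**Figure D2:**
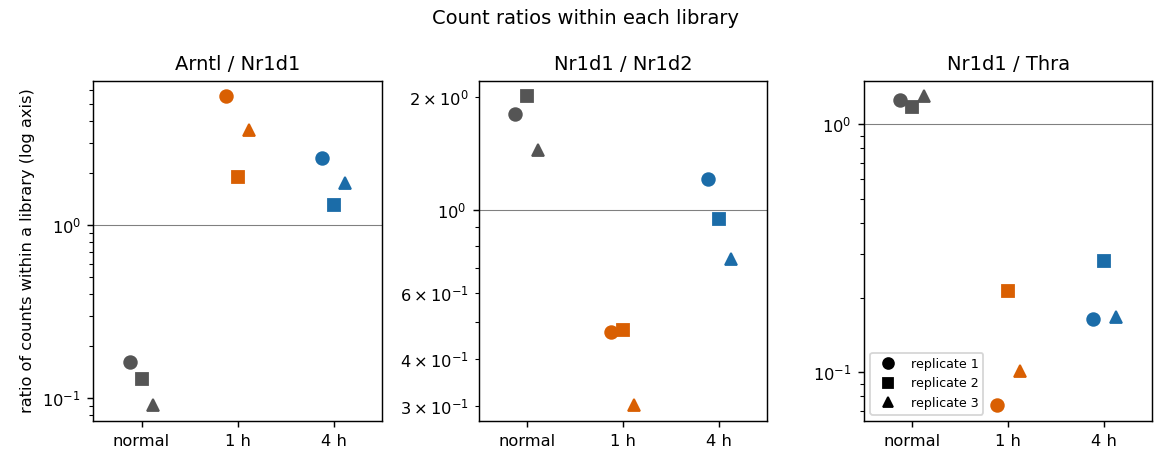
Ratios of raw counts within each library on log axes (Arntl to Nr1d1, Nr1d1 to Nr1d2 and Nr1d1 to Thra) in the normal, 1 h and 4 h groups, with 1 point per library shaped by replicate number and a grey line at a ratio of 1. Arntl to Nr1d1 runs from 0.0909 to 0.163 in normal rats and from 1.30 to 5.53 in ischemic ones.

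Repressor and activator were also compared within libraries. The ratio of Arntl to Nr1d1 counts came to 0.163, 0.130 and 0.0909 without ischemia, 5.53, 1.89 and 3.53 after 1 h, and 2.44, 1.30 and 1.76 after 4 h. It was highest in replicate 1 at 1 h, where Nr1d1 was lowest, and the 1 h and 4 h libraries overlapped. Such ratios depend on the lengths of the 2 transcripts, which are taken to be the same in every library, though transcript forms were not measured. They compare libraries and say nothing of which transcript was more abundant.

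Between 4 h and 1 h the 6 genes were compared in the fit to all genes. The low 1 h level of Nr1d1 was in view when they were chosen, so these values are a description too. Of the 6 genes 0 were called by edgeR or by DESeq2, and 1 (Nr1d1) had an unadjusted p under 0.05. In all, 0% of genes were called and 2.58% had an unadjusted p under 0.05. The groups overlapped for each of the 6, while 6.24% of all genes did not overlap (3.2% higher and 3.04% lower). Nr1d1 differed most, with a log2 value of 0.98 (SE 0.37, adjusted p = 0.856), or 1.98-fold higher at 4 h, and the difference was 0.36 without the 3 libraries with the highest neuron score. Npas2 differed by 0.46 (SE 0.52, adjusted p = 0.856), Arntl by 0.17 (SE 0.22, adjusted p = 0.856), Clock by 0.10 (SE 0.22, adjusted p = 0.888), Rora by -0.029 (SE 0.18, adjusted p = 0.961) and Nr1d2 by -0.17 (SE 0.40, adjusted p = 0.892). Scaling by library size alone put the median of all genes at -0.24 in this contrast, where Arntl was at -0.032 and Clock at -0.087.

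**Figure D3:**
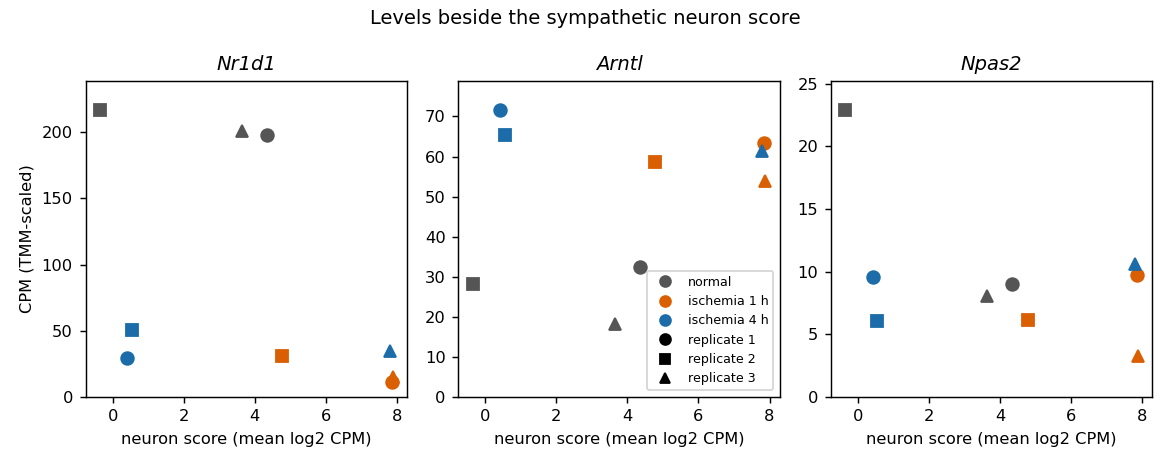
CPM of Nr1d1, Arntl and Npas2 (vertical axes, from 0) against the neuron score, the mean log2 CPM of 23 sympathetic neuron markers, with 1 point per library coloured by group and shaped by replicate number. At scores of 4.35 and 4.77, normal replicate 1 and replicate 2 at 1 h have 198 and 31.2 CPM of Nr1d1. Those libraries also differ in smooth muscle markers, which sum to 12167 and 50178 CPM. The highest Npas2 level lies in the library with the lowest score.

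The neuron marker sum of each 1 h library was above that of each normal library, so the 6 genes were set beside it. Within the 1 h group, replicates 1 and 3, with scores of 7.85 and 7.88, had lower Nr1d1 levels than replicate 2, with a score of 4.77. At 4 h the library with a score of 7.79 had a Nr1d1 level between those of the libraries with scores of 0.42 and 0.55. With the score as a covariate the log2 fold changes of Nr1d1 were -3.15 (SE 0.40) at 1 h and -2.40 (SE 0.35) at 4 h, those of Nr1d2 were -1.36 (SE 0.47) and -1.52 (SE 0.41), and those of Arntl were 1.24 (SE 0.27) and 1.34 (SE 0.22). With this covariate the 1 h call of Nr1d1 was lost, which left 0 of the 6 called there, of 11 genes in all. At 4 h it gave 2 calls, Nr1d1 and Arntl, of 119 genes in all. Without the 3 libraries with the highest score, which leaves 1 library at 1 h that is taken to vary like the others, Nr1d1 was at -2.71 (SE 0.42) and -2.35 (SE 0.30), Nr1d2 at -0.86 (SE 0.49) and -1.60 (SE 0.39) and Arntl at 1.18 (SE 0.31) and 1.41 (SE 0.25). In that fit 0 of the 6 genes were called at either time, and the differences of Nr1d1 and Arntl from normal kept their direction.

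**Figure D4:**
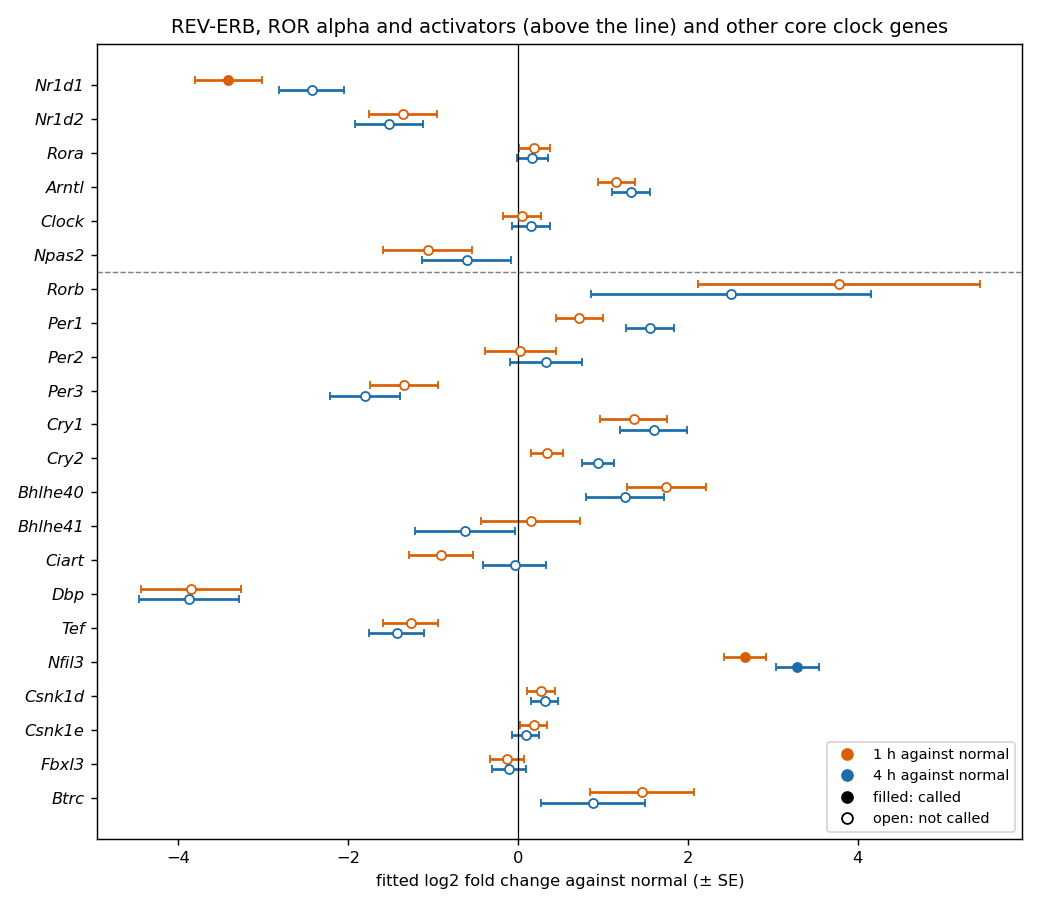
Fitted log2 fold changes (horizontal axis, ± SE) at 1 h (orange) and 4 h (blue) against normal, for the 6 genes above the dashed line and 16 other core clock genes below it, with filled points for called genes. Filled points are Nr1d1 at 1 h and Nfil3 at both times.

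Other genes of the clock loops give the setting of these values. Of 19 further core clock genes, 16 were tested, since Arntl2 had too few counts and Hlf and Fbxl21 were not among the gene symbols counted. At each time edgeR called 1 of the 16, Nfil3, higher, beside 0.0581% of all genes at 1 h and 0.0904% at 4 h. By edgeR, 5 higher and 4 lower genes at 1 h and 5 higher and 3 lower genes at 4 h had an unadjusted p below 0.05, beside 16.7% and 12.4% of all genes at these times. DESeq2, which also fitted Arntl2, called 5 of 17 at 1 h and 7 of 17 at 4 h, of 638 and 551 called among 24047 genes. At 1 h the groups did not overlap for 6 higher and 3 lower genes of the 16, and at 4 h likewise for 6 and 3, to be read beside the shares of all genes given above. Both the list and the 6 genes were chosen with earlier results known.

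Nfil3, a repressor whose gene carries ROR elements, rose from 12.4 ± 2.94 CPM in normal rats to 79.3 ± 10.4 CPM at 1 h and 122 ± 25.0 CPM at 4 h (log2 fold change 2.67, SE 0.25, adjusted p = 0.0164, and 3.29, SE 0.26, adjusted p = 0.00501). Its 1 h call was lost without any 1 of normal replicates 1, 2 and 3 and replicates 2 and 3 at 1 h, and its 4 h call was lost without normal replicate 2. Cry1, a repressor of the BMAL1 complex that REV-ERBs also hold down, was at 6.04 ± 2.26 CPM in normal rats, 15.5 ± 4.69 at 1 h and 18.3 ± 6.53 at 4 h, with groups that did not overlap normal (adjusted p = 0.227 and 0.169). With Arntl, Clock and Npas2 these made a list of 5 genes held to be under ROR elements. Of these 5, 3 (Arntl, Cry1 and Nfil3) were above all normal libraries at both times, as were 12.8% of all genes at 1 h and 7.93% at 4 h. DESeq2 called these 3 at both times, of 638 and 551 called among 24047 genes.

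Genes driven from E-boxes lay on both sides of normal. Of 14 tested, the REV-ERB pair included, 4 were higher and 5 lower than all normal libraries at 1 h (12.8% and 13.5% of all genes), and 5 and 5 at 4 h (7.93% and 10.8% of all genes). The edgeR fit called 1 of the 14, Nr1d1, at 1 h and 0 at 4 h, beside 0.0581% and 0.0904% of all genes. DESeq2 called 6 at 1 h and 9 at 4 h, of 638 and 551 called among 24047 genes. Lower with the REV-ERBs were Dbp (log2 fold change -3.85, SE 0.59, adjusted p = 0.117 at 1 h), Tef (-1.26, SE 0.32, adjusted p = 0.21) and Per3 (-1.35, SE 0.40, adjusted p = 0.232). Dbp was at 56.2, 61.2 and 215 CPM in the normal libraries, and without normal replicate 3 its 1 h value was -2.93 (SE 0.33, adjusted p = 0.0864). With all 9 libraries DESeq2 gave Dbp an adjusted p of 1.76e-08 at 1 h. Above all normal libraries were Per1, which codes for a period repressor and was at 177 ± 23.5 CPM in normal rats and 292 ± 80.4 at 1 h (adjusted p = 0.28), Bhlhe40, Cry1 and Wee1. Per1 was at 519 ± 120 CPM at 4 h (log2 fold change 1.55, SE 0.28, adjusted p = 0.0789). Per2 was near its normal level at 1 h (log2 fold change 0.027, SE 0.42, adjusted p = 0.978).

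Partners and ligand supply of the REV-ERBs were described by lists as well. Of 5 genes of the corepressor complex, 0 were called by edgeR or by DESeq2 at either time and 0 had an unadjusted p under 0.05. Hdac3 was at 44.1 CPM in normal rats, 38.1 CPM at 1 h and 41.3 CPM at 4 h. Of 10 genes of heme synthesis and breakdown 0 were called by edgeR, while 2 genes at 1 h and 4 genes at 4 h had an unadjusted p below 0.05, beside 16.7% and 12.4% of all genes, so that the 1 h count was near the share of all genes. DESeq2 called 1 at each time, Hmox1. Hmox1, which breaks heme down, was at 2.47 CPM in normal rats, 22.5 CPM at 1 h and 12.9 CPM at 4 h (log2 fold change 3.17, SE 0.61, adjusted p = 0.145 at 1 h), while Alas1, which starts heme synthesis, was at 24.3, 27.6 and 25.2 CPM. Of the 10, 1 was higher and 2 were lower than all normal libraries at 1 h (12.8% and 13.5% of all genes). At 4 h these were 2 and 4 (7.93% and 10.8% of all genes). The lower ones were synthesis genes, among them Ppox at both times (log2 fold change -0.89, SE 0.29, and -0.70, SE 0.29). Of 9 cofactors of clock activators and RORs 0 were called by edgeR, and at each time 1 had an unadjusted p under 0.05, no more than the share of all genes (16.7% and 12.4%). This gene was Kmt2a, a histone methyltransferase, with log2 fold changes of -0.67 (SE 0.17, adjusted p = 0.21) and -0.78 (SE 0.18, adjusted p = 0.142). DESeq2 called Kmt2a at both times.

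**Figure D5:**
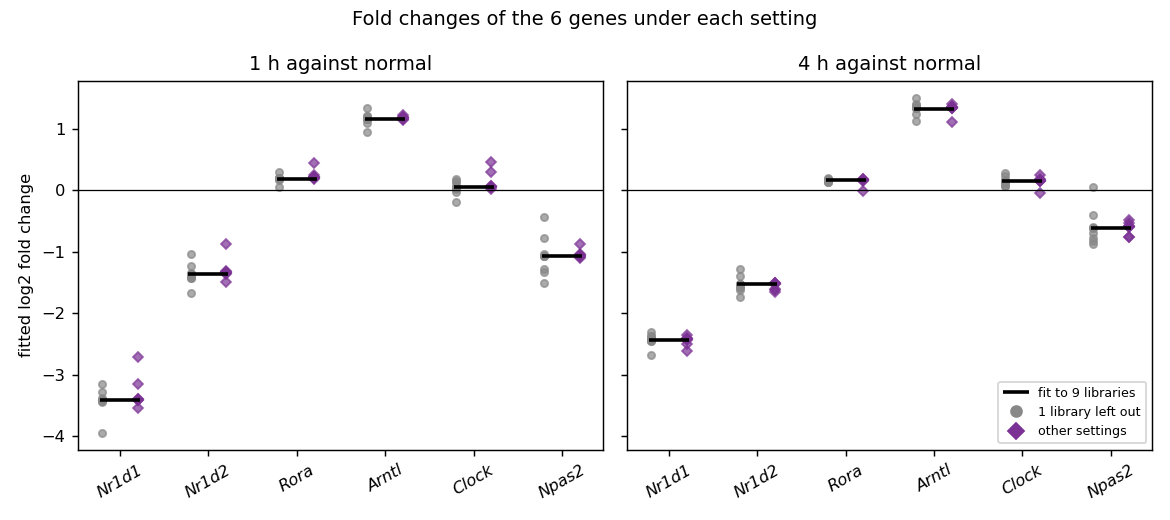
Fitted log2 fold changes (vertical axis) of the 6 genes at 1 h and 4 h against normal under each setting, with a black bar for the fit to 9 libraries, grey points for fits without 1 library and purple diamonds for the other settings. Nr1d1 and Nr1d2 stay below 0 and Arntl stays above 0 in each fit, while Rora, Clock and Npas2 each cross 0 in at least 1 fit.

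The direction of Nr1d1, Nr1d2 and Arntl against normal was kept in all 9 fits that left out 1 library and in the 7 other planned settings at both times. Log2 fold changes of Nr1d1 ran from -3.94 to -3.14 at 1 h over the fits without 1 library, and its call was kept in 1 of the 9, that without replicate 2 at 1 h. At 4 h they ran from -2.68 to -2.30 and Nr1d1 was called in 1 of the 9, again without replicate 2 at 1 h. Those of Nr1d2 ran from -1.67 to -1.04 and from -1.74 to -1.27, and those of Arntl from 0.95 to 1.33 and from 1.13 to 1.51.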

How the data were processed

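RNA of SMAs was sequenced in 9 libraries, 3 per group, as grouped by the labels. The authors deposited raw counts per gene symbol. Per the labels, Trizol was used for extraction and libraries followed a standard Illumina protocol, and the submitters' processing notes name HISAT2. The study also describes microarrays and an assembly program for these samples, so which steps made the table is not clear. The counting program, genome build, annotation and strand setting are not given in the sources used here, and counts at shared exons or near-identical copies may be split. All 9 columns matched a sample title.

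Counts were tested in R 4.3.3 with edgeR 4.0.16 (filterByExpr, TMM, glmQLFit and glmQLFTest, group as the only term, all 9 libraries in one fit). Benjamini-Hochberg adjustment ran across the whole set of tested genes. Calls needed an adjusted p under 0.05 and a fold change over 1.5, the thresholds of the study. Scripts were tested on simulated data. The common biological coefficient of variation was 51.6%, so low genes and small changes are measured with little precision. Log2 CPM used a prior count of 2. Alternatives were relative log expression size factors, library size only, no filter, DESeq2 1.42.0 on all genes with any count, only the groups compared, the neuron score, a replicate block and leaving out each library. Leaving out 3 libraries was chosen after seeing the data. The 6 genes, their lists and the naming rule were chosen with earlier results of these data known. The rule names the 6 genes, the core clock list, called genes of the other lists and the 3 genes most like each member. Other genes were named after their values were seen, and 2 genes of the lists are not reported here and were left out of their counts. Promoter windows and gene overlaps came from RefSeq tables of GRCr8.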

Additional observations from a re-analysis of the deposited data

How the results depend on the processing

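Of the 6 genes, the number called at 1 h (1) was 2 with DESeq2, 0 with the neuron score as a covariate, 0 with only the 2 groups compared, 0 without the 3 libraries with the highest score and 0 to 1 without single libraries. The number called at 4 h (0) was 3 with DESeq2, 2 with the score and 0 to 1 without single libraries. Of the other listed genes, the number called at 1 h (1) was 8 with DESeq2, 0 with only the 2 groups compared, 0 without the 3 libraries and 0 to 1 without single libraries, and at 4 h (1) it was 10 with DESeq2, 4 with the score and 0 to 1 without single libraries. DESeq2, run on 24047 genes, called 638 at 1 h and 551 at 4 h, against 9 and 14 of the 15482 genes tested by edgeR. The score gave 11 and 119. The causes were not tested. Scaling by library size alone put the all-gene median at -0.15 (4 h), and the log2 fold changes against normal at 4 h were -0.037 for Clock and -0.0016 for Rora. Between 4 h and 1 h that scaling turned Arntl to -0.032 and Clock to -0.087, and Clock was also -0.13 with the score and -0.21 without the 3 libraries. Leaving out single libraries also turned some signs. Clock at 1 h ran from -0.19 (replicate 2 at 1 h left out) to 0.19 and was -0.023 when normal replicate 3 was left out. Npas2 at 4 h ran from -0.86 to 0.052, the latter when normal replicate 2 was left out. Between 4 h and 1 h, Clock ran from -0.029 (replicate 3 at 1 h left out) to 0.35, Nr1d2 from -0.48 to 0.15 (replicate 2 at 1 h left out), with 0.070 when replicate 1 at 4 h was left out, and Rora from -0.14 to 0.12 (replicate 2 at 1 h left out). Of the 3 genes most like each member, Spearman correlation kept 0 for Nr1d1, Nr1d2, Rora, Arntl and Clock and 1 for Npas2, and a minimum of 20 CPM kept 1 for Nr1d2. Same-numbered libraries did not deviate together in every pair (r from -0.65 to 0.66), and 7 of 18 comparisons gave the best correlation to a library's own number. With the replicate block 1 of the 6 genes was called at 1 h and 0 at 4 h, and 7 and 7 genes in all. With a biological coefficient of variation of 51.6%, small changes are not detectable here.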

Other observations

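The genes whose log2 CPM followed each of the 6 most closely were sought among 10436 genes with a mean of at least 5 CPM. The 9 libraries share their groups, so these correlations are a description. The genes named depend on the measure, as Spearman correlation kept almost none of them, as given above. Nr1d1 was followed most closely by Snx33, a sorting nexin (Pearson r = 0.97), the transcription factor Nfib (0.97) and Msl1 (0.96). For Nr1d2 these were Zfp521 (0.97), the replication helicase subunit Mcm2 (0.97) and Rbl2, a relative of the retinoblastoma protein (0.97). Arntl was followed by the chromatin remodelling subunit Smarcc1 (0.96), Fem1b (0.95) and the kinase gene Sik1 (0.95), and Rora by Atxn1l (0.96), the mediator subunit Med13l (0.95) and Ppard (0.94), a nuclear receptor. Clock had lower values, with Xrn2 (0.91), Rela (0.90) and Pgf (0.90), as had Npas2, with Nr2c1 (0.94), Rgs12 (0.90) and Itfg2 (0.90).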
